A study of Homo sapiens with 9 samples.

Results

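The E2F transcription factors and the retinoblastoma (RB) family were followed through 9 RNA sequencing libraries of SKOV3 cells, an established line of human ovarian cancer. The genes are 10 of the 32378 in the deposited table, taken by name: the activators E2F1, E2F2 and E2F3, the repressors E2F4, E2F7 and E2F8, the partner TFDP1 and the pocket proteins RB1, RBL1 (p107) and RBL2 (p130). All 10 passed the filter on low counts that left 16450 genes to test. There were 3 libraries from cells given Carbo+COM33, 3 from cells given Carbo, read here as the platinum drug carboplatin from the design text of the series, and 3 from control cells. COM33 is known only by its code name. All cells were grown in serum, and the labels give no dose, no time of treatment and no group with COM33 alone, so an effect of COM33 cannot be told apart from one that needs carboplatin. The series sought the way in which COM33 raises the response to carboplatin.

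E2F factors bind DNA mostly as pairs with a DP protein such as TFDP1. The activators turn on genes for DNA replication and for entry into S phase. Pocket proteins bind E2F factors and silence their targets until cyclin-dependent kinases phosphorylate them: RB1 mainly holds the activators, while RBL1 and RBL2 mainly work with E2F4. E2F7 and E2F8 bind DNA without a DP partner and repress E2F1 and other targets late in S phase. Several of the genes carry E2F sites in their own promoters, so the family feeds back on itself.

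Total counts ran from 13851760 to 15533668 per library. The library Carbo 1 lay nearer to the library control 1 (root mean square difference of log2 CPM 0.385) than to Carbo 3 (0.518). Carbo 2 likewise lay nearer to control 3 (0.357) than to Carbo 3 (0.375), so this was not particular to Carbo 1. Results that rest on Carbo 1 are given with and without it. Of 8 genes expected in an ovarian carcinoma line, such as PAX8, KRT7 and ERBB2, all 8 were detected, with summed levels of 321 to 370 FPKM in Carbo+COM33, 422 to 484 FPKM in Carbo and 439 to 485 FPKM in control libraries. Of the markers of other cells, PTPRC (blood), PECAM1 (endothelium) and PDGFRB (fibroblasts) had at most 6, 4 and 4 counts in any library. The highest sums in any library were 0.646 FPKM for 6 blood markers, 0.317 FPKM for 4 endothelial markers and 4.18 FPKM for 4 fibroblast markers, almost all of it from COL1A1. In bulk RNA, fewer cells in S phase and less RNA per cell cannot be told apart. Nothing in the labels says that the replicates came from separate cultures, so the p-values measure only the spread between these libraries, which may be technical.

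The promoters of 5 members are shown because E2F1, E2F2, E2F3 and RBL1 hold E2F-type letters close to the start and E2F7 holds none. The 120 bases before the RefSeq transcription start (assembly GRCh38.p14) are printed 5′ to 3′ on the gene's strand, which is the minus strand for all but E2F3. Capitals mark matches to TTTCGCGC, TTTGGCGC, TTTCCCGC or TTTGCCGC on either strand. The stretches are chr20:33686386-33686505 for E2F1, chr1:23531234-23531353 for E2F2, chr6:20401759-20401878 for the first of 2 start sites of E2F3, chr20:37095998-37096117 for RBL1 and chr12:77065570-77065689 for E2F7.
E2F1: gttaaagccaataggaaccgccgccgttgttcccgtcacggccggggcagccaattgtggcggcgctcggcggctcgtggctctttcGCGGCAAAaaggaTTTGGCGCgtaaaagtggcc
E2F2: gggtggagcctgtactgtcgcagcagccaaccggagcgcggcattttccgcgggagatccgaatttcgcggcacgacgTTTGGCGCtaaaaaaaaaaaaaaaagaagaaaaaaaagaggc
E2F3: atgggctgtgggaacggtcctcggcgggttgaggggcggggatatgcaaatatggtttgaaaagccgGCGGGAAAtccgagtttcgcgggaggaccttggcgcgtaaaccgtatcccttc
RBL1: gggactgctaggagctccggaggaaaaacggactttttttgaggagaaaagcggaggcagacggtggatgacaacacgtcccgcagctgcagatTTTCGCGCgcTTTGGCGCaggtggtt
E2F7: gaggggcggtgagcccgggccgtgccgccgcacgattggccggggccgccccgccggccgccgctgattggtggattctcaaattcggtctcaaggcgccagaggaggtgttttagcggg
E2F1 held 2 matches, first bases at -33 and -20 from the start, and E2F2 held 1, at -42. RBL1 held 2 close to each other, at -26 and -16, E2F3 held 1 at -53, and TFDP1, not shown, held 1 at -120. No match shared bases with another. The windows of E2F4, RBL2 and E2F7 held none between 250 bases before and 50 bases after the start, nor did the window of the other start site of E2F3, though E2F7 held 4 CCAAT boxes (the letters CCAAT, either strand), as E2F3 did, and E2F1 held 3; 34.6% of all windows held at least 1. The window listed for RB1 lies inside the gene and was not used, and E2F8 had no entry. Of 35116 windows of the same length, 3.31% held such E2F letters, and 4.77% of the windows of tested genes did. In Carbo+COM33 against Carbo, described below, E2F1 and E2F2 hold matches and were called, while E2F3, TFDP1 and RBL1 hold matches and were not. E2F7 and RBL2 hold none and were called, and E2F4 holds none and was not. A link between matches and changes was not tested. A match is a description of letters, not a bound site.

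Levels between genes were compared in FPKM (fragments per kilobase of exon, scaled to the library's total), which corrects for gene length. E2F7 was the highest of the 10 in every group, at 57.6 ± 4.74 FPKM in Carbo+COM33, 44 ± 2.15 FPKM in Carbo and 41.8 ± 2.46 FPKM in control libraries (SD, n = 3 each). E2F4 came second in every group, at 33.2 ± 0.795, 30.1 ± 1.13 and 32.3 ± 1.94 FPKM in Carbo+COM33, Carbo and control libraries. The lowest were E2F2 and E2F8: E2F2 had 0.573 ± 0.233 FPKM in Carbo+COM33, 2.34 ± 0.875 FPKM in Carbo and 1.55 ± 0.528 FPKM in control libraries, and E2F8 had 0.75 ± 0.148, 1.82 ± 0.965 and 1.22 ± 0.229 FPKM. Values of E2F2 and E2F8 overlapped in each group, so their order there is not set. In Carbo+COM33 the order from the top was E2F7, E2F4, TFDP1, RB1, E2F3, RBL2, E2F1, RBL1, E2F8 and E2F2, and only E2F1 with RBL1 and E2F8 with E2F2 overlapped. In Carbo, E2F4, RB1 and TFDP1 overlapped in turn, as did E2F3, RBL2 and E2F1. In control libraries the neighbours E2F3 and RBL2 overlapped, and E2F1 lay below both. E2F1 was thus level with E2F3 and RBL2 in Carbo libraries, whereas in Carbo+COM33 libraries it lay below both of them.

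**Figure D1:**
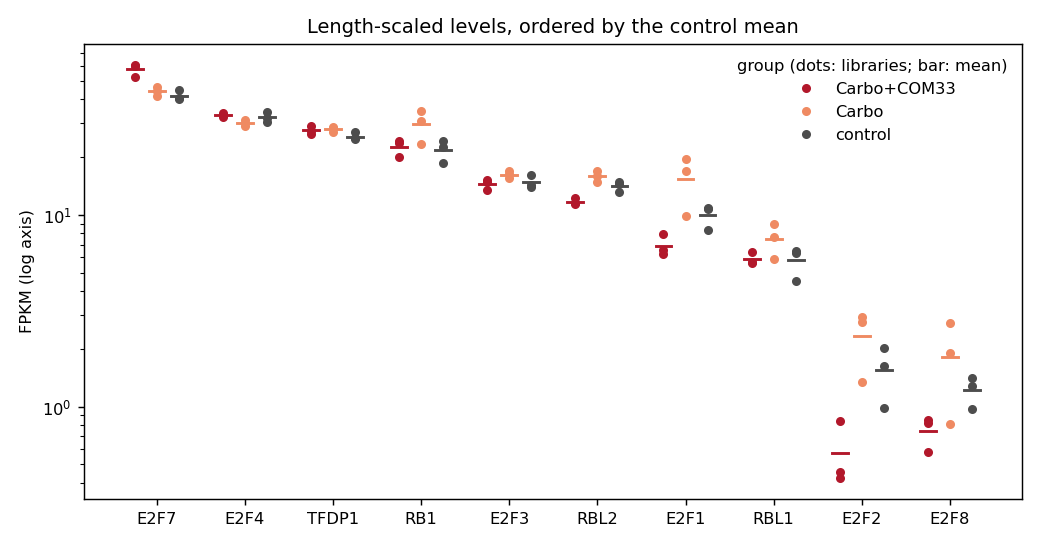
FPKM on a log axis for each gene, ordered by the control mean, with Carbo+COM33 left of Carbo left of control; dots are the 3 libraries of a group and bars their mean. E2F7 stands highest throughout, while E2F1, E2F2 and E2F8 lie lowest in Carbo+COM33, where E2F8 overlaps 1 Carbo library.

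The genes fell into a variable and a steady set. Over the 9 libraries the SD of log2 CPM (CPM: counts scaled to the library's TMM-corrected total) was 0.99 for E2F2, 0.67 for E2F8 and 0.55 for E2F1, against a median of 0.22 over the tested genes. It was 0.10 for E2F3, 0.093 for E2F4 and 0.087 for TFDP1, so that only 5.5% of tested genes had a lower spread than TFDP1. The pocket proteins lay between, at 0.28 for RB1, 0.27 for RBL1 and 0.19 for RBL2. Low counts add to the spread of E2F2 (32 to 235 counts per library) and E2F8 (35 to 163 counts).

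**Figure D2:**
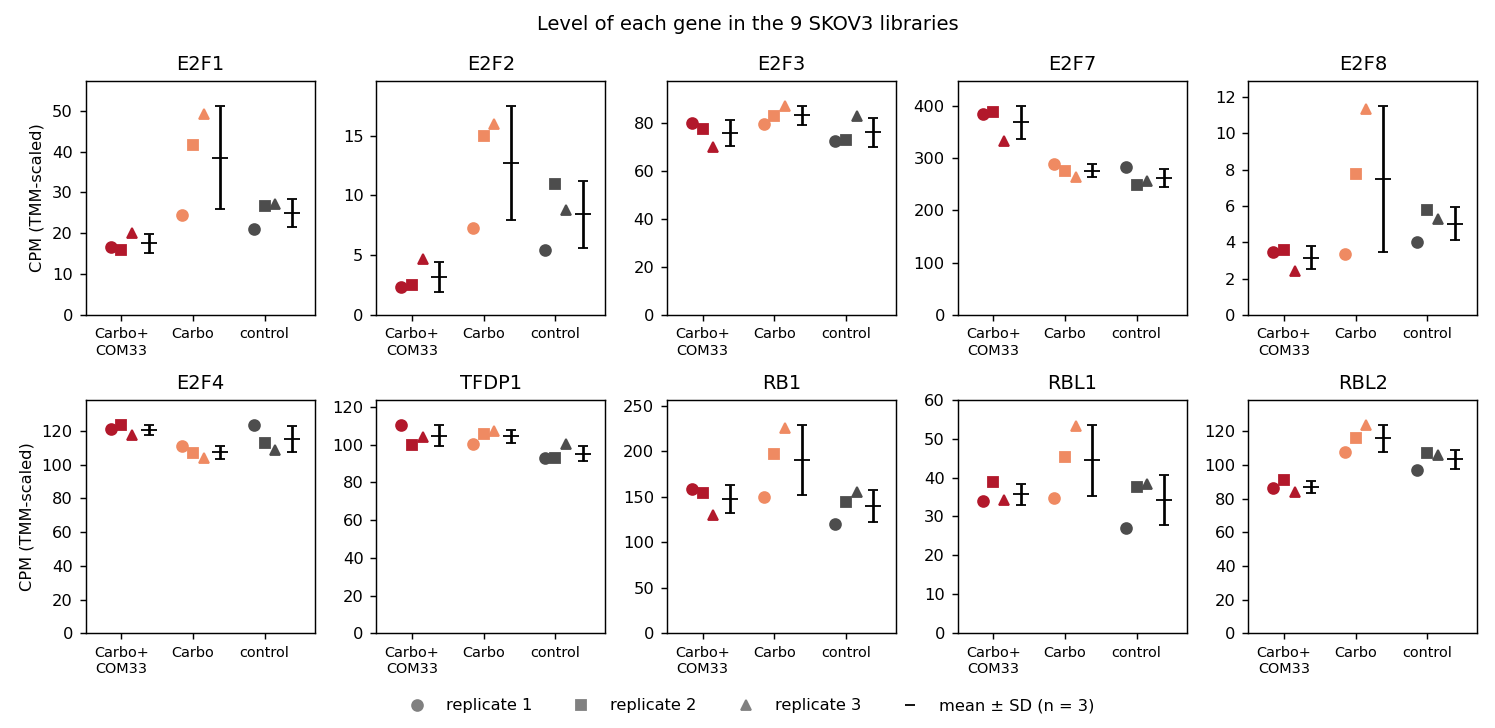
CPM of each gene by library (symbols give the replicate number) with mean ± SD of the 3 libraries at the right of each group; each panel starts at 0. E2F1, E2F2 and RBL2 are lowest in the 3 Carbo+COM33 libraries and E2F7 highest, while E2F3, E2F4 and TFDP1 stay nearly level.

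The comparison of Carbo+COM33 with Carbo asks what COM33 changed in cells that had the platinum drug. E2F1, E2F2 and RBL2 fell and E2F7 rose, 4 of the 10 genes. Over all tested genes 4.96% were called, 2.43% up and 2.53% down. A gene was called where the adjusted p of edgeR's quasi-likelihood test, Benjamini-Hochberg over all 16450 genes, was under 0.05. Groups did not overlap for 5 of the 10, E2F4 being the fifth, against 23.7% of all tested genes. The median log2 fold change of the 10 was -0.34, beside -0.01 over all genes.

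Among the activators, E2F1, the factor best known for driving S phase entry, had 16.7, 15.8 and 20.2 CPM in Carbo+COM33 libraries, against 24.6, 41.7 and 49.2 CPM in Carbo libraries. The 3 Carbo+COM33 values lay below all Carbo values, and Carbo 1 was the nearest to them. The log2 fold change was -1.13 (SE 0.21), or 0.456 of the Carbo level, with an adjusted p of 0.0106 in edgeR's quasi-likelihood test. E2F2, an activator close to E2F1 in function, had 2.36, 2.51 and 4.64 CPM in Carbo+COM33 libraries, against 7.27, 14.96 and 15.97 CPM in Carbo libraries. It showed the largest change of the 10, a log2 fold change of -2.0 (SE 0.35, adjusted p 0.00776 in edgeR's quasi-likelihood test), and the groups did not overlap. E2F3, the third activator, had 80.2, 77.5 and 70.0 CPM with COM33 and 79.5, 83.1 and 87.2 CPM in Carbo libraries, and these overlapped (log2 fold change -0.13, SE 0.087). The summed level of the 3 activators was 21.5 to 22.2 FPKM in Carbo+COM33 libraries and 26.7 to 39.4 FPKM in Carbo libraries, and most of what remained was E2F3.

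Of the repressors, E2F7 had 385, 387 and 332 CPM in Carbo+COM33 libraries, against 289, 275 and 264 CPM in Carbo libraries. Every Carbo+COM33 value was higher, the log2 fold change was 0.42 (SE 0.086) and the adjusted p in edgeR's quasi-likelihood test was 0.0175. E2F8, its closest relative, pointed the other way: it had 3.46, 3.56 and 2.42 CPM in Carbo+COM33 libraries and 3.36, 7.77 and 11.4 CPM in Carbo libraries. Carbo 1 lay within the Carbo+COM33 values, and the log2 fold change of -1.25 (SE 0.35) missed the threshold with an adjusted p of 0.0615 in edgeR's quasi-likelihood test. Without Carbo 1 it was -1.60 with an adjusted p of 0.000488 in the same edgeR test, and DESeq2 gave an adjusted p of 0.00787 with all libraries. The FPKM ratio of E2F7 to E2F1 was 9.15, 9.75 and 6.54 in Carbo+COM33 libraries and 4.68, 2.62 and 2.13 in Carbo libraries. In control libraries it was 5.33, 3.71 and 3.76. Neither gene overlapped between Carbo+COM33 and Carbo, and they moved in opposite directions. Their ratios could therefore not overlap and add no further result.

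E2F4, the repressor that works with RBL1 and RBL2, had 121, 124 and 118 CPM in Carbo+COM33 libraries, all above the 111, 107 and 104 CPM in Carbo libraries. The difference was small, at a log2 fold change of 0.17 (SE 0.076), with an adjusted p of 0.214 in edgeR's quasi-likelihood test. TFDP1, the DP partner, did not separate: 111, 99.7 and 104 CPM with COM33 and 101, 106 and 108 CPM in Carbo libraries.

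RBL2, the pocket protein most abundant in resting cells, had 86.4, 90.9 and 83.8 CPM in Carbo+COM33 libraries, against 108, 116 and 124 CPM in Carbo libraries. The groups did not overlap (log2 fold change -0.41, SE 0.082, adjusted p 0.0143 in edgeR's quasi-likelihood test). RBL2 shares 610 exonic bases with AKTIP on the opposite strand, which had 502 to 648 counts, and whether counting used strand is not given in the sources used here, so the value of RBL2 is uncertain to that extent. RB1 had 159, 154 and 130 CPM with COM33 and 150, 197 and 226 CPM in Carbo libraries, a log2 fold change of -0.37 (SE 0.14) with an adjusted p of 0.143 in edgeR's quasi-likelihood test. RBL1 had 34.1, 38.8 and 34.2 CPM with COM33 and 34.9, 45.3 and 53.1 CPM in Carbo libraries (log2 fold change -0.31, SE 0.16, adjusted p 0.264 in the same edgeR test). In both, the library Carbo 1 lay among the Carbo+COM33 values while Carbo 2 and Carbo 3 lay above them.

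Without Carbo 1, 7 of the 10 genes were called, 6 of them down (8.57% of all genes down), with E2F8, RB1 and RBL1 joining at adjusted p 0.000488, 0.00681 and 0.0359 in edgeR's quasi-likelihood test. Without Carbo 2 none of the 10 was called, at adjusted p 0.0636 for E2F1, 0.0529 for E2F2, 0.0957 for E2F7 and 0.0817 for RBL2 in the same edgeR test. Leaving out Carbo 3 ended the calls of E2F7 and RBL2 (adjusted p 0.0786 and 0.067), and leaving out Carbo+COM33 1 or 2 ended those of E2F1, E2F7 and RBL2 (adjusted p 0.0508 to 0.0856 in edgeR's test). The sign of these 4 log2 fold changes was the same in every fit tried.

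**Figure D3:**
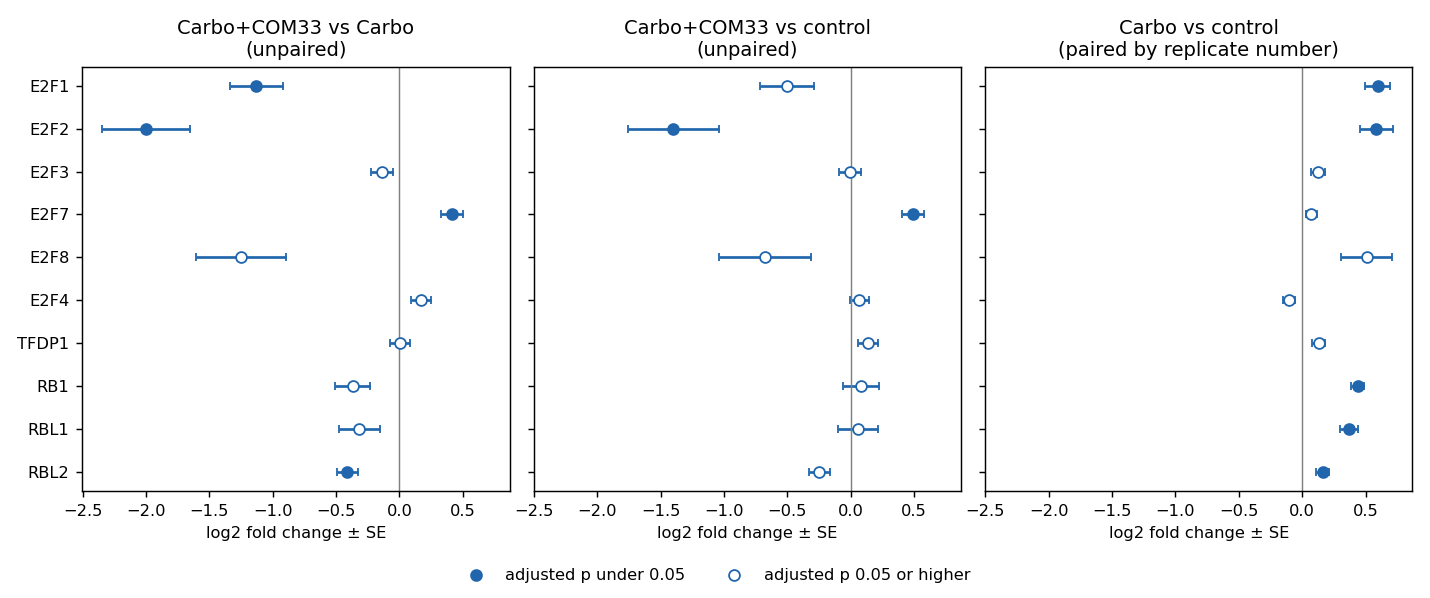
Log2 fold change ± SE of each gene in the 3 comparisons, filled where the adjusted p was under 0.05; the first 2 panels are unpaired and the last is paired by replicate number. E2F1 and E2F2 lie left of 0 in both Carbo+COM33 panels and right of 0 in Carbo vs control, and E2F7 lies right of 0 in both Carbo+COM33 panels.

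Against control cells, the combination left E2F2 lower and E2F7 higher, 2 of the 10 genes, where 6.29% of all genes were called, 3.2% up and 3.09% down. E2F2 had 2.36, 2.51 and 4.64 CPM in Carbo+COM33 libraries and 5.41, 10.99 and 8.83 CPM in control libraries, with no overlap (log2 fold change -1.40, SE 0.36, adjusted p 0.0383 in edgeR's quasi-likelihood test). E2F7 had 385, 387 and 332 CPM in Carbo+COM33 libraries and 282, 249 and 256 CPM in control libraries. It rose by a log2 fold change of 0.49 (SE 0.086, adjusted p 0.00889 in edgeR's quasi-likelihood test). The groups did not overlap for 5 of the 10 genes, against 28.7% of all tested genes: E2F7 lay above, and E2F1, E2F2, E2F8 and RBL2 below.

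E2F1 lay below control in all 3 libraries, at 16.7, 15.8 and 20.2 CPM in Carbo+COM33 against 21.0, 26.7 and 27.0 CPM in control libraries, yet the log2 fold change of -0.51 (SE 0.21) had an adjusted p of 0.168 in edgeR's quasi-likelihood test. RBL2 was also below control in each library (log2 fold change -0.25, SE 0.082), with an adjusted p of 0.0896, and E2F8 likewise (log2 fold change -0.68, SE 0.36), with an adjusted p of 0.28 in the same edgeR test. RB1 and RBL1 overlapped control, with log2 fold changes of 0.08 (SE 0.14) and 0.06 (SE 0.16). E2F3, E2F4 and TFDP1 also overlapped control and lay between -0.01 and 0.14 on the log2 scale. In the ratio of E2F1 to RB1 FPKM, Carbo+COM33 libraries had 0.271, 0.264 and 0.399, Carbo libraries 0.423, 0.545 and 0.562, and control libraries 0.45, 0.479 and 0.45, so the Carbo+COM33 ratios were the lowest. Neither call held without control 2, control 3, Carbo+COM33 1 or Carbo+COM33 2, at adjusted p from 0.11 to 0.182 for E2F2 and from 0.0518 to 0.0734 for E2F7 in edgeR's test. Without Carbo 2, which enters through the shared spread, E2F2 also missed the threshold (adjusted p 0.0551). Carbo+COM33 and control libraries differed with GC content. The median log2 fold change was -0.21 for genes over 60% GC and 0.15 for genes of at most 40% GC. With the trend of each library with GC content and length removed, E2F2 had a log2 fold change of -1.32 with an adjusted p of 0.0504, and RBL2 one of -0.33 with an adjusted p of 0.0138 in edgeR's test.

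The comparison of Carbo with control shows what the platinum drug did alone. Without pairing, edgeR's quasi-likelihood test called none of the 10 genes and 0% of all genes, while 2748 genes, 3 of the 10 among them, had an unadjusted p under 0.05, and DESeq2 called 132 genes and none of the 10. Libraries of the same number deviated together here, so the replicate number was also used as a block. In that paired test E2F1, E2F2, RB1, RBL1 and RBL2 rose, 5 of 10, and none fell. Over all genes the paired test called 23.4%, 11.6% up and 11.9% down, so calls were common in this comparison. With the block in a fit of all 9 libraries, none of the 10 and no gene at all was called in edgeR's test. Groups did not overlap for 2 of the 10, TFDP1 and RBL2, against 22.5% of all tested genes.

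E2F1 had 24.6, 41.7 and 49.2 CPM in Carbo libraries 1 to 3, against 21.0, 26.7 and 27.0 CPM in control libraries 1 to 3. It was higher in 3 of 3 pairs, by 0.22, 0.64 and 0.86 on the log2 scale, and the paired log2 fold change was 0.60 (SE 0.097, adjusted p 0.000324 in edgeR's quasi-likelihood test). E2F2 was higher in 3 of 3 pairs, with 7.27, 14.96 and 15.97 CPM in Carbo and 5.41, 10.99 and 8.83 CPM in control libraries (paired log2 fold change 0.59, SE 0.13, adjusted p 0.00382 in the same edgeR test). RB1, the founding member of the pocket protein family, had 150, 197 and 226 CPM in Carbo and 120, 144 and 155 CPM in control libraries. Its paired log2 fold change was 0.44 (SE 0.051, adjusted p 1.88e-05 in edgeR's quasi-likelihood test), the lowest p of the 10. RBL1 had 34.9, 45.3 and 53.1 CPM in Carbo and 27.0, 37.5 and 38.5 CPM in control libraries (paired log2 fold change 0.37, SE 0.072, adjusted p 0.00143), and RBL2 had 108, 116 and 124 CPM against 96.9, 107 and 106 CPM (0.16, SE 0.051, adjusted p 0.0275 in edgeR's test).

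The other members did not pass. E2F7 had 289, 275 and 264 CPM in Carbo and 282, 249 and 256 CPM in control libraries (paired log2 fold change 0.07, SE 0.045, adjusted p 0.28 in edgeR's quasi-likelihood test). E2F8 was lower in the first pair and higher in the other two, by -0.25, 0.41 and 1.09 on the log2 scale. E2F3, E2F4 and TFDP1 had paired log2 fold changes of 0.13, -0.10 and 0.13. TFDP1 lay at 101 to 108 CPM in Carbo and 92.8 to 100.2 CPM in control libraries, without overlap, and its adjusted p was 0.076 in edgeR's paired test. The pairs were uneven for E2F1, E2F2, RB1 and E2F8, with replicate 1 the smallest difference and replicate 3 the largest. Without Carbo 1, the unpaired edgeR test called E2F1 (log2 fold change 0.87, adjusted p 0.0127), E2F8 (0.92, adjusted p 0.0322), RB1 (0.60, adjusted p 0.0163) and RBL1 (0.52, adjusted p 0.0439), 4 of 10 up beside 3.24% of all genes.

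Carbo and control libraries also differed with base composition, as Carbo+COM33 and control libraries did. In the paired fit, the median log2 fold change was -0.24 for genes over 60% GC and 0.18 for genes of at most 40% GC. E2F1 transcripts are 62.5% GC and RB1 transcripts 39.3% GC. With that trend and the one with length removed, 5 of 10 members were called up in the paired test (5.9% of all genes up). E2F1 then stood at 0.85 (adjusted p 8.23e-08), E2F2 at 0.71 (adjusted p 0.000309), RB1 at 0.26 (adjusted p 0.000318) and RBL1 at 0.22 (adjusted p 0.0477 in edgeR's test). TFDP1 passed at 0.20 (adjusted p 0.0102), and RBL2 at 0.02 did not (adjusted p 0.857). Leaving a replicate number out of the paired fit, E2F1, RB1 and RBL1 passed all 3 times, E2F2 failed without replicate 3 (adjusted p 0.0574), and RBL2 failed without replicate 2 or 3 (adjusted p 0.142 and 0.128 in edgeR's test). The comparisons of Carbo+COM33 with Carbo and of Carbo with control share the Carbo libraries, so opposite signs in them are not independent of each other.

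The upstream part of the pathway, cyclins and kinases that phosphorylate pocket proteins and the inhibitors of those kinases, is set out next. CCND1 (cyclin D1), which activates CDK4 and CDK6, rose with COM33: it averaged 238 ± 21.3 CPM in Carbo+COM33 and 149 ± 23.3 CPM in Carbo libraries (log2 fold change 0.68, SE 0.12, adjusted p 0.00717 in edgeR's quasi-likelihood test), and 144 ± 16 CPM in control libraries (0.73, SE 0.12, adjusted p 0.00542; SD, n = 3 each). The call against Carbo was lost without Carbo 2 (adjusted p 0.0597) and the call against control without control 2 (adjusted p 0.0516 in edgeR's test). CDKN1A (p21), an inhibitor of CDK2, averaged 237 ± 18.3 CPM in Carbo+COM33 and 131 ± 28.9 CPM in Carbo libraries (log2 fold change 0.85, SE 0.16, adjusted p 0.0104 in edgeR's test; 0.0701 without Carbo 2). In control libraries it averaged 171 ± 35 CPM, which Carbo+COM33 exceeded without overlap but without passing (adjusted p 0.0905), and in Carbo it fell by 0.39 on the log2 scale against control in the paired edgeR test (adjusted p 4.56e-05), or by 0.22 with GC content and length removed (adjusted p 0.00229). CDKN2C (p18), a CDK4 and CDK6 inhibitor that is itself an E2F target, averaged 2.9 ± 0.235 CPM in Carbo+COM33 and 7.9 ± 3.33 CPM in Carbo libraries (-1.44, SE 0.31, adjusted p 0.0197), and CDK2 averaged 18.3 ± 0.481 and 27.8 ± 4.49 CPM (-0.61, SE 0.13, adjusted p 0.0187 in edgeR's test). Both of these calls were lost with any library left out of either group except Carbo 1, at adjusted p from 0.0566 to 0.114 in edgeR's test.

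Of the 6 tested genes of the cyclin D list, 1 rose and 1 fell in Carbo+COM33 against Carbo (median log2 fold change 0.06), 1 rose against control, and 1 rose and 1 fell in the paired test of Carbo against control. Among all genes the shares up and down were 2.43% and 2.53%, 3.2% and 3.09%, and 11.6% and 11.9%. With 6 genes tested, 1 call either way is too few to set above or below these shares. The genes called in the paired test were CDK6 (0.44, adjusted p 6.08e-05) and CDK4 (-0.27, adjusted p 0.00565 in edgeR's paired test). With GC content and length removed 4 of the 6 were up and none was down, beside 5.9% and 5% of all genes. CDK4 then stood at -0.15 (adjusted p 0.113 in edgeR's paired test). Of the 10 genes of the cyclin E and cyclin A list, 1 rose and 1 fell against Carbo (median -0.09), and 2 rose and 1 fell in the paired test of Carbo against control. The 2 were CDK2 and CCNA2 (cyclin A2), which had 55.5 ± 10.4 CPM in Carbo and 37.3 ± 1.88 CPM in control libraries (paired log2 fold change 0.56, adjusted p 6.82e-05 in edgeR's test). None of that list passed in Carbo+COM33 against control in edgeR's test, where 2 had an unadjusted p under 0.05 and DESeq2 called 1. Of all genes, 24% had such a p there and DESeq2 called 9.5%. In Carbo+COM33 against Carbo, no gene of either list was called in either direction without Carbo 2. Without Carbo 1, 2 of the first and 3 of the second fell, beside 8.57% of all genes. These counts are again too few to set above or below that share. CCND2 had at most 1 count in any library, while CDKN2A and CDKN2B are not among the 32378 genes with deposited counts. TFDP2, the other DP partner, fell to 60.2 ± 3.73 CPM in Carbo+COM33, against 80.9 ± 3.96 CPM in Carbo libraries (log2 fold change -0.42, SE 0.084, adjusted p 0.014 in edgeR's test), a call that was lost without Carbo 2, Carbo 3 or Carbo+COM33 2 (adjusted p 0.0593 to 0.0682). The kinase sites themselves, which decide whether a pocket protein binds E2F, were not measured.

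Downstream, a list of 55 replication and G1/S genes taken as E2F targets, of which 54 were tested, lay lower with COM33 than in Carbo. E2F-type letters, as defined above, were in 28 of the 68 promoter windows of the list (41.2%), beside 4.77% of windows of tested genes. In Carbo+COM33 against Carbo 11 of 54 fell, where 2.53% of all genes did, and none rose. The median log2 fold change was -0.50, and 28 of the 54 lay below Carbo without overlap, as 11.9% of all genes did. MCM7, a subunit of the replicative helicase, averaged 31.8 ± 3.63 CPM in Carbo+COM33 and 59.7 ± 17.4 CPM in Carbo libraries (log2 fold change -0.91, SE 0.17, adjusted p 0.0118 in edgeR's quasi-likelihood test). HELLS, a chromatin remodeller, had a log2 fold change of -0.83 (adjusted p 0.0124), MCM10, a replication initiation factor, -0.99 (adjusted p 0.0152), and CDT1, which loads the helicase, -0.94 (adjusted p 0.0197 in edgeR's test). The count was 37 without Carbo 1, where 8.57% of all genes fell, and 0 without Carbo 2.

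Against control, the same list had 2 genes up and none down, with a median log2 fold change of -0.08. The 2 were GINS3 (0.51, adjusted p 0.0293) and TOPBP1 (0.38, adjusted p 0.0355 in edgeR's test), where 3.2% of all genes rose. Both calls were lost without control 2, Carbo+COM33 1 or Carbo+COM33 2 (adjusted p 0.0853 to 0.177), and the number down was 0 to 3 with 1 library left out. Of the 54, 11 lay below control without overlap, beside 14.4% of all genes. In Carbo against control 40 rose in the paired test, where 11.6% of all genes did, and none fell (median 0.37). The number up was 35 with GC content and length removed (5.9% of all genes), and 31 in the unpaired test without Carbo 1 (3.24% of all genes). Without replicate 2 the paired count was 23. The unpaired edgeR test with all libraries called none, with 33 at an unadjusted p under 0.05, and DESeq2 called 1. Of all genes, 16.7% had such a p and DESeq2 called 0.802%. The lowest p-values were those of ATAD2 (0.71), RRM1 (0.57), BRCA1 (0.45) and TOPBP1 (0.42), with adjusted p 5.69e-06, 1.74e-05, 2.96e-05 and 5.74e-05 in edgeR's paired test.

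The genes of the G2/M list, which the MuvB complexes of RBL1 and RBL2 hold silent and B-MYB and FOXM1 turn on, had 35 of 42 up in the paired test of Carbo against control (median log2 fold change 0.48), where 11.6% of all genes were up. The lowest p-values were those of ASPM, CENPF, ANLN and TTK, with log2 fold changes of 0.77, 0.70, 0.75 and 0.75. In Carbo+COM33 against Carbo 1 of 42 fell, the mitotic kinesin KIF20A, at 12.4 ± 1.24 CPM in Carbo+COM33 and 24.9 ± 8.56 CPM in Carbo libraries (-1.01, SE 0.2, adjusted p 0.0144 in edgeR's test), with a median of -0.35 over the list. That count is about the share of all genes down, 2.53%, but other measures of the list lay further from the background. None of the 42 log2 fold changes was above 0, and 15 genes lay below Carbo without overlap, as 11.9% of all genes did. At an unadjusted p under 0.05 in edgeR's test there were 24, all down, beside 22.4% of all genes in either direction. DESeq2 called 10 down, beside 4.13% of all genes. Without Carbo 1 the edgeR count was 25 of 42, beside 8.57% of all genes down, and without Carbo 2 it was 0. Against control none passed in edgeR's test, 8 had an unadjusted p under 0.05 and DESeq2 called 3 (median 0.14). Over all genes 24% had such a p there, and DESeq2 called 9.5%. Of the 7 tested components of the MuvB machinery, MYBL2, LIN54, FOXM1 and LIN9 rose in the paired test of Carbo against control, by 0.28, 0.47, 0.34 and 0.37. With GC content and length removed 3 of the 7 were called up, beside 5.9% of all genes, and LIN9 (0.20, adjusted p 0.284 in edgeR's paired test) was not. MYBL2 then stood at 0.48. In each Carbo+COM33 comparison none of the 7 passed in edgeR's test, 2 had an unadjusted p under 0.05 and DESeq2 called 1. Over all genes 22.4% against Carbo and 24% against control had such a p, and DESeq2 called 8.24% and 9.5%.

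Library by library, the variable members and the G1/S list did not keep the same order. Of the list, the median log2 CPM, each gene centred on its mean over the 9 libraries, was -0.10, -0.17 and -0.20 in Carbo+COM33, -0.03, 0.30 and 0.55 in Carbo and -0.24, -0.07 and 0.03 in control libraries. E2F1, centred in the same way, stood at -0.59, -0.67 and -0.32 in Carbo+COM33, -0.04, 0.72 and 0.96 in Carbo and -0.26, 0.08 and 0.10 in control libraries. So Carbo 2 and Carbo 3 were highest on both measures, while the Carbo+COM33 libraries lay below control 1 for E2F1 but not for the list. RB1 was lowest in control 1, like the list, and E2F7 was highest in the 3 Carbo+COM33 libraries.

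**Figure D4:**
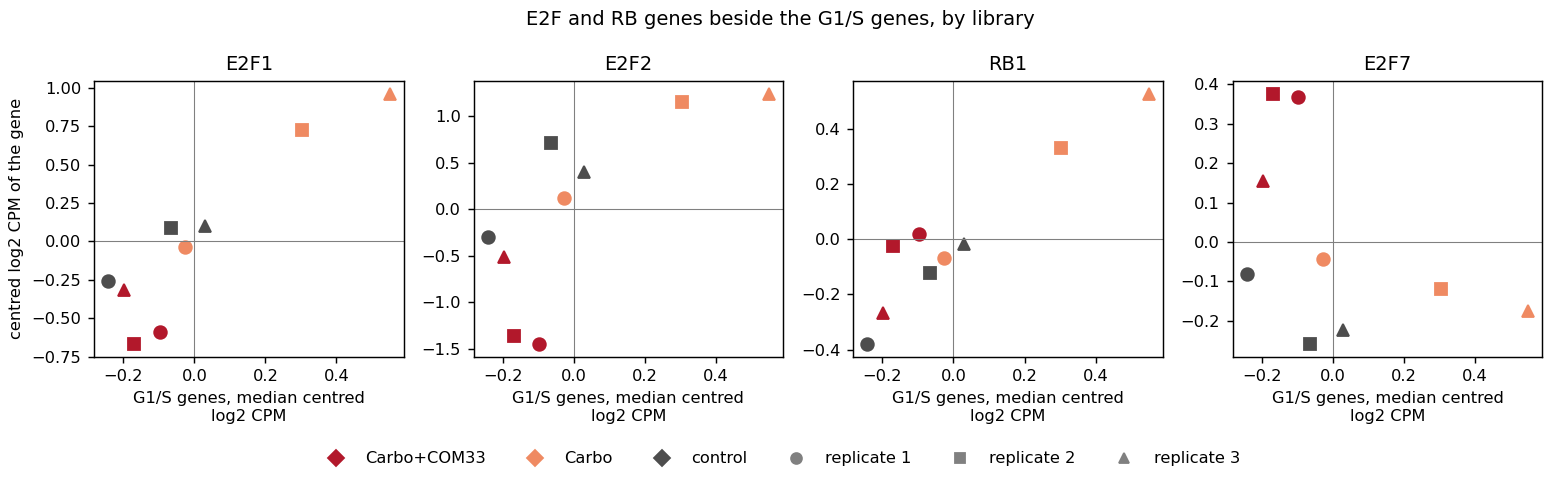
Centred log2 CPM of E2F1, E2F2, RB1 and E2F7 in each library against the median centred log2 CPM of 54 G1/S genes; colours give the group and symbols the replicate number. Carbo 2 and Carbo 3 stand apart at the upper right for E2F1, E2F2 and RB1, and the 3 Carbo+COM33 libraries stand highest for E2F7.

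The genes with a pattern most like that of a member were ranked by the root mean square difference of centred log2 CPM over the 9 libraries, among 11527 genes of at least 5 CPM. For E2F1 they were MCM7 (0.138), RASSF6 (0.144) and CDT1 (0.149), and 27 genes lay within 0.2. For E2F2 they were SMAD6 (0.231), ID1 (0.253) and BDNF (0.261), and no gene lay within 0.2. For E2F8 they were ZFP30 (0.167), TM4SF1 (0.193) and CCDC80 (0.202). E2F7 was nearest to VPS13C (0.0452), PIP4K2A (0.0478) and ZCCHC14 (0.0522), RB1 to MELK (0.0435), FAM214A (0.054) and CEP170 (0.0544), and RBL1 to FBXL5 (0.0471), SH3BGRL (0.0545) and FUT8 (0.0632). For these last 3 members a small difference says little, since 2385, 1812 and 1699 genes lay within 0.2. All these values share the same 9 libraries and carry no p.

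The genes lie apart on the genome (build GRCh38, GENCODE release 29). E2F1 is at chr20:33675683-33686404 and RBL1 at chr20:36996349-37095995, both on the minus strand. E2F2 is at chr1:23506430-23531220, E2F7 at chr12:77021247-77065580 and E2F8 at chr11:19224063-19241620, all on the minus strand. On the plus strand are E2F3 at chr6:20401906-20493715, E2F4 at chr16:67192169-67198918, RBL2 at chr16:53433977-53491649, RB1 at chr13:48303726-48599436 and TFDP1 at chr13:113584721-113641470. Counts cover the exons of each gene as a whole, so the 2 start sites of E2F3 were not told apart.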

How the data were processed

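RNA of 3 Carbo+COM33, 3 Carbo and 3 control libraries of SKOV3 cells was sequenced after poly-T selection with a NEBNext Ultra RNA kit, per the labels' protocols. The authors deposited whole-number read counts per gene and, beside them, FPKM values. The tools named are HTSeq 0.11.2, HISAT2 and DESeq2 1.26.0, with build GRCh38, per the submitters' processing notes; their settings are not given in the sources used here. The deposited FPKM used the exon union as gene length for 32283 of 32378 genes, within 0.5 bp. All gene IDs matched GENCODE release 29.

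Counts were fitted with edgeR 4.0.16 (R 4.3.3): filterByExpr, TMM (factors 0.9821 to 1.013), glmQLFit over all 9 libraries with 1 term for each group (common dispersion 0.0133, 6 residual degrees of freedom) and glmQLFTest, with Benjamini-Hochberg adjustment over 16450 genes. The SE is the log2 fold change divided by the root of F. An adjusted p in the text comes from edgeR's quasi-likelihood test unless DESeq2 (1.42.0) is named. FPKM served for levels between genes. Log2 CPM used a prior count of 2. The fits were tested on simulated data. Figures were drawn with matplotlib 3.10.9.

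Replicate numbers were checked for pairing by the correlation, across 6607 genes, of deviations from the group means. It was 0.824, 0.565 and 0.748 for Carbo and control libraries 1, 2 and 3, each over 0.1, so a paired fit with the number as a block in these 6 libraries is given beside the unpaired one. It was -0.015, 0.138 and -0.388 for Carbo+COM33 with Carbo, and 0.0851, 0.101 and -0.42 for Carbo+COM33 with control. Alternatives were RLE size factors, no filter, DESeq2, only the libraries compared, the block, removal of trends with GC content and length, and each library or replicate number left out.

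Promoters came from RefSeq (GRCh38.p14). The members and gene lists were chosen with earlier results of these data known. Named in the text are all 10 members, up to 4 called genes with the lowest p per list and comparison, genes of the 2 cyclin lists, and the 3 nearest genes by likeness for 6 members. Some genes that this rule would name are not reported here.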

Additional observations from a re-analysis of the deposited data

How the results depend on the processing

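Of 600 refits of a member's log2 fold change, 25 changed sign, all in a gene and comparison not called in the unpaired fit. With GC content and length removed, without and with the replicate block, these were E2F7 (-0.0143, -0.0154) and E2F4 (0.0685 in both) in Carbo against control, TFDP1 (-0.00908, -0.0145) in Carbo+COM33 against Carbo, and RB1 (-0.0413, -0.0398) and RBL1 (-0.04, -0.0347) in Carbo+COM33 against control. E2F3 in Carbo+COM33 against control was 0.00439 with RLE size factors, 0.000776 with no filter and 0.00433 with DESeq2. With 1 library left out, TFDP1 ran from -0.0329 to 0.0437 in Carbo+COM33 against Carbo, and in Carbo+COM33 against control E2F3 ran from -0.0404 to 0.0607, RB1 from -0.00928 to 0.164 and RBL1 from -0.083 to 0.146. In the paired fit without replicate 1, TFDP1 was -0.056 and, against control, RB1 -0.0754 and RBL1 -0.06; without replicate 3, E2F3 was 0.114. The cause was not tested.

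In Carbo against control, the unpaired edgeR test called 0 genes, against 928 and 3 members with no filter on low counts, 132 with DESeq2, 3771 and 5 members with the replicate block, and 1756 and 5 members with the block and GC content and length removed. The block without replicate 1, 2 or 3 called 4319, 1299 or 2947 genes and 6, 4 or 3 members. With 1 library left out the unpaired test called 0 to 1026 genes and 0 to 4 members, the highest without Carbo 1. In Carbo+COM33 against Carbo, 816 genes became 1876 with no filter, 1356 with DESeq2 and 1277 with GC content and length removed. There the correlations of same-numbered libraries were -0.015, 0.138 and -0.388, so the numbers did not pair them throughout. The block gave 477 genes and 2 members (adjusted p 0.0524 for E2F7 and 0.0753 for RBL2 in edgeR's test). It gave 1554 genes over all 9 libraries, 1708 genes without replicate 1, and 279 genes and 2 members without replicate 2. With 1 library left out, 128 to 2717 genes and 0 to 7 members were called. In Carbo+COM33 against control, 1035 genes became 1934 with no filter and 1563 with DESeq2. The block gave 1625 genes over all 9 libraries and 1774 with GC content and length removed; without replicate 1 it called 4 members, without replicate 2 317 genes and 1 member, and without replicate 3 5065 genes and 5 members. E2F1 was called there with the block (adjusted p 0.0423), without Carbo 1 (0.0252) and in a fit of the 6 libraries compared (0.0372 in edgeR's test). With 1 library left out, 119 to 2189 genes and 0 to 3 members were called. E2F2 and E2F8 rest on 32 and 35 counts in their lowest libraries, which limits their precision.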

Other observations

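Apoptosis genes that have been reported as E2F1 targets did not move as one. HRK, a BH3-only gene that promotes cell death, rose to 46.2 ± 1.72 CPM in Carbo+COM33, against 14.4 ± 3.96 CPM in Carbo libraries (log2 fold change 1.68, SE 0.17, adjusted p 0.000502 in edgeR's quasi-likelihood test) and 18.7 ± 3.03 CPM in control libraries (1.30, SE 0.17, adjusted p 0.00192; SD, n = 3 each). The median log2 fold change over the 12 genes of the list was 0.12 against Carbo and 0.04 against control. In the paired test of Carbo against control 1 of the 12 rose, CASP8 (0.21, adjusted p 0.0167), and 3 fell, BBC3 (-0.51, adjusted p 0.00263), HRK (-0.39, adjusted p 0.0118) and SIVA1 (-0.19, adjusted p 0.0272 in edgeR's paired test). Of all genes 11.6% rose and 11.9% fell there. With GC content and length removed HRK passed (-0.38, adjusted p 0.0168), and CASP8 (0.10, adjusted p 0.331), BBC3 (-0.24, adjusted p 0.159) and SIVA1 (0.00, adjusted p 0.997 in edgeR's paired test) did not.

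Of 15 corepressors that bind pocket proteins or E2F6, SIN3A, a histone deacetylase scaffold, fell to 86.2 ± 3.58 CPM in Carbo+COM33, against 119 ± 7.79 CPM in Carbo libraries (-0.47, SE 0.08, adjusted p 0.00667 in edgeR's test). SIN3A was the 1 of the 15 called there, where 2.53% of all genes fell. Without Carbo 2 none of the 15 was called there, and without Carbo 1 there were 3, all down, beside 8.57% of all genes. RING1 and SMARCA4 fell against control, by 0.32 and 0.31 on the log2 scale (adjusted p 0.0407 and 0.0425 in edgeR's test). They were 2 of the 15, where 3.09% of all genes fell. With GC content and length removed neither passed, at -0.13 for both (adjusted p 0.276 and 0.274), and neither passed without any one of the control libraries, Carbo 2, Carbo+COM33 1 or Carbo+COM33 2 (adjusted p 0.0525 to 0.208 in edgeR's test). In the paired test of Carbo against control 4 of the 15 rose and 2 fell, beside 11.6% and 11.9% of all genes; those with the lowest p were RBBP8 (0.43), RING1 (-0.32), RNF2 (0.36) and SIN3A (0.20). With GC content and length removed 2 rose and none fell, beside 5.9% and 5% of all genes, and RING1 stood at -0.09 (adjusted p 0.321 in edgeR's paired test). E2F6, a repressor that works with Polycomb proteins, was not called in any of the 3 comparisons and had 5.1 to 7.28 FPKM.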
